A study of Glycine max with 4 samples.

Results

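Soybean chromosomes carried few binding sites of the protein of locus GLYMA.13G317000 in their middles, and the sites found there are described here. They come from chromatin immunoprecipitation followed by sequencing (ChIP-seq) on embryos of Glycine max, cultivar Williams 82, in the mid-maturation stage, when seeds lay down their reserves. The ChIP group has 2 biological replicates, made with an antibody against a peptide of residues 1 to 15 of the protein, and the input group has 2 samples of sonicated chromatin from the same kind of embryos, with no antibody. All embryos were dissected from seeds of 200 to 250 mg, and no genotype or treatment differed between the samples. No knockout or other antibody served as a further control here, and antibody specificity was not tested. Peaks were called by the authors in each ChIP replicate, 48191 in replicate 1 and 62340 in replicate 2.

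A shared site joins a replicate 1 peak and a replicate 2 peak, each being the largest overlap of the other. It was placed midway between their summits, a summit being the base with the most reads. The whole series has 44959 shared sites, of which 41447 lie on the 19 chromosomes used here. Chromosome 13 was not used, and the members were the 1859 shared sites at 40 to 60% of the span of each other chromosome. They are 4.13% of all shared sites and 4.49% of those on the 19 chromosomes. The other 39588 sites of these chromosomes are called elsewhere. The span is the largest peak end on a chromosome, since a genome in the build of the lists was not used.

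In ChIP-seq, a protein crosslinked to DNA is pulled down with its DNA fragments, and a place where it sat gives a narrow heap of reads above the level of input chromatin. Soybean chromosomes are known for gene-rich ends and for long pericentromeric regions rich in repeats and poor in genes, which often lie near the middle of a chromosome. Genes, repeats and sequence at the sites were not analysed here, and whether 40 to 60% of the span covers the pericentromeric region of a given chromosome was not tested. How readily reads align along the chromosomes was not tested either. Locus GLYMA.13G317000 itself lies on chromosome 13, per its name. Coordinates follow the authors' peak lists and count from 1. Their genome build is not given in these sources.

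The middles were sparse on all 19 chromosomes, which is how they were chosen, so densities are given as a description with no test. The 180.5 Mb of the middles held 10.3 shared sites per Mb (95% Poisson interval 9.84 to 10.8), against 54.8 per Mb elsewhere (54.3 to 55.4). The ratio of elsewhere over middle was 5.32. It was 5.41 with the replicate 1 peaks alone and 5.24 with the replicate 2 peaks alone. The intervals cover counting error only.

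**Figure D1:**
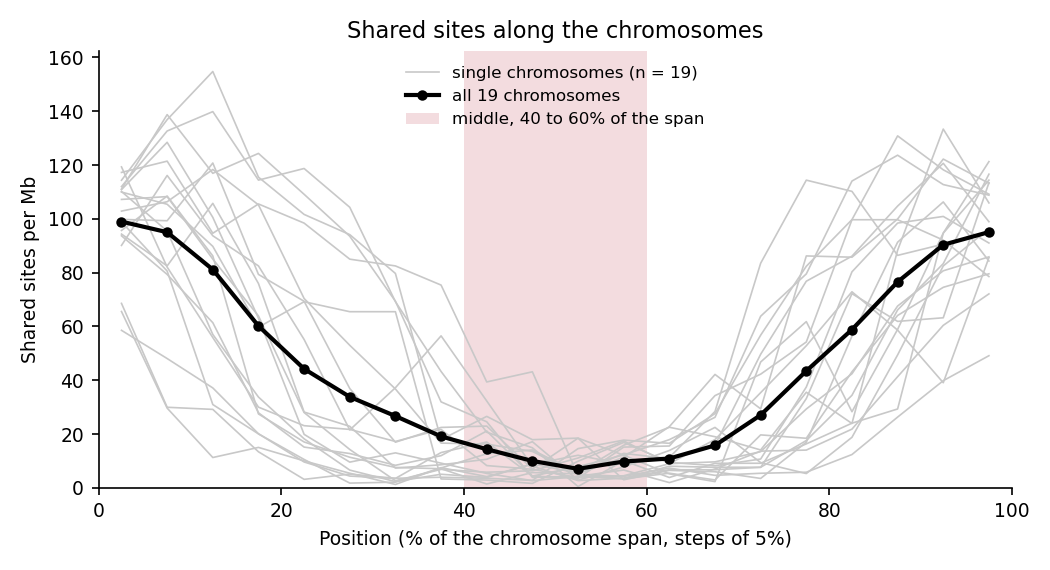
Shared sites per Mb (y axis) in steps of 5% of the chromosome span (x axis), for each of the 19 chromosomes (grey lines) and for all together (black line, points); the shaded band is the middle. The black line is lowest at 50 to 55% of the span, at 7.07 sites per Mb, and reaches 99.0 per Mb in the first step.

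Pooled over the 19 chromosomes, the decline towards the middle was gradual, and the limits of 40% and 60% do not mark a step. Pooled density was 19.1 sites per Mb at 35 to 40% of the span, just outside, and 14.4 at 40 to 45%, just inside. It was 9.99 at 45 to 50%, 7.07 at 50 to 55% and 9.77 at 55 to 60%. Beyond the upper limit it was 10.9 at 60 to 65% and 15.8 at 65 to 70%. Pooling hides abrupt falls that some single chromosomes had at positions of their own. On chromosome 2, density fell from 65.5 sites per Mb at 30 to 35% of the span to 3.29 at 35 to 40%. On chromosome 11 it fell from 79.7 to 17.9 between the same steps. The sparsest step of 10% of the span lay within the middle on 11 of the 19 chromosomes. It lay at 20 to 30% on chromosome 3, at 30 to 40% on chromosomes 1, 10, 16 and 20, and at 60 to 70% on chromosomes 6, 11 and 12. On these 8 chromosomes the sparsest step lay outside the limits. Values at the limit are given as fold enrichment, the authors' ratio of the pileup of reads at the summit over a local background, each with 1 read added, given for replicate 1 and then replicate 2. On chromosome 8, the last site outside the lower limit lay at 19097498 to 19097923, with folds of 13.6 and 17.6, and the first member at 19109215 to 19109484, with folds of 5.53 and 9.66. On chromosome 12, the last site outside lay at 16006637 to 16006895, with folds of 5.53 and 5.69, and the first member at 16033111 to 16033523, with folds of 13.1 and 15.6.

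Chromosomes differed in how sparse their middles were. Chromosome 8 had the densest middle, with 216 members or 22.6 per Mb (95% Poisson interval 19.7 to 25.8), against 68.0 per Mb elsewhere on it. Chromosome 11 followed with 130 members, 18.8 per Mb (15.7 to 22.3) against 77.1 elsewhere, and chromosome 12 with 103 members, 12.9 per Mb (10.5 to 15.6) against 57.3. These values set chromosome 8 apart from every other chromosome but chromosome 11, whose interval overlaps its own.

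The sparsest middle was that of chromosome 4, with 41 members or 3.92 per Mb (2.81 to 5.32), against 49.8 per Mb elsewhere on it. Chromosome 18 had 68 members, 5.86 per Mb (4.55 to 7.43) against 44.3, and chromosome 5 had 50 members, 5.92 per Mb (4.40 to 7.81) against 60.2. Elsewhere over middle, the ratio ran from 3.01 on chromosome 8 to 12.7 on chromosome 4.

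The members of chromosome 8 lay almost entirely on 1 side. Of its 216 members, 197 lay at 40 to 50% of the span and 19 at 50 to 60%. In steps of 5% the densities were 39.4, 43.1, 4.61 and 3.35 sites per Mb from the lowest step to the highest, so density fell sharply near the centre of that chromosome. Without chromosome 8, the middles held 1643 members or 9.61 per Mb, against 54.1 per Mb elsewhere. On chromosome 4, the densities in the same steps were 5.35, 2.68, 4.21 and 3.44 sites per Mb, low throughout.

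**Figure D2:**
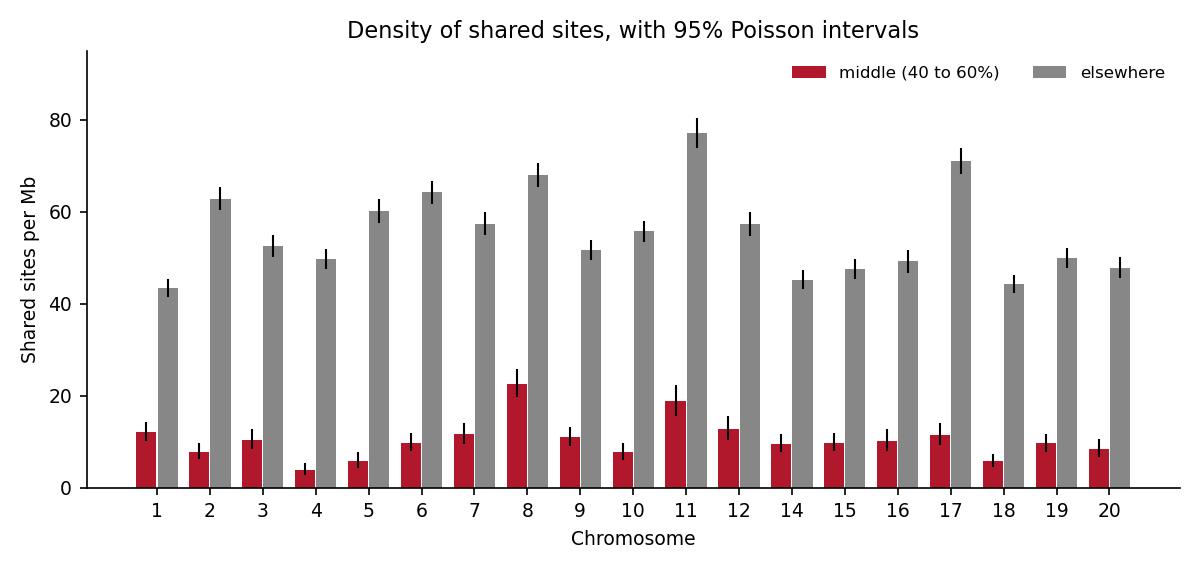
Shared sites per Mb (y axis) on each chromosome (x axis) in the middle (red bars) and elsewhere (grey bars); error bars are 95% Poisson intervals. The red bar is the lower one on all 19 chromosomes, with 3.92 sites per Mb on chromosome 4 and 22.6 on chromosome 8 as the extremes of the middles.

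Sites of the middles were uneven in their spacing, with close groups set between long empty stretches. A member lay a median of 7.31 kb from the nearest other shared site, against 3.30 kb elsewhere. The middle 50% of these distances ran from 1.85 to 31.8 kb for members and from 1.53 to 7.36 kb elsewhere. A neighbour within 2 kb was found for 496 members (26.7%), against 33.8% of sites elsewhere, and one within 10 kb for 1013 members (54.5%), against 82.6%. Distance follows from density in part, so these values are a description.

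**Figure D3:**
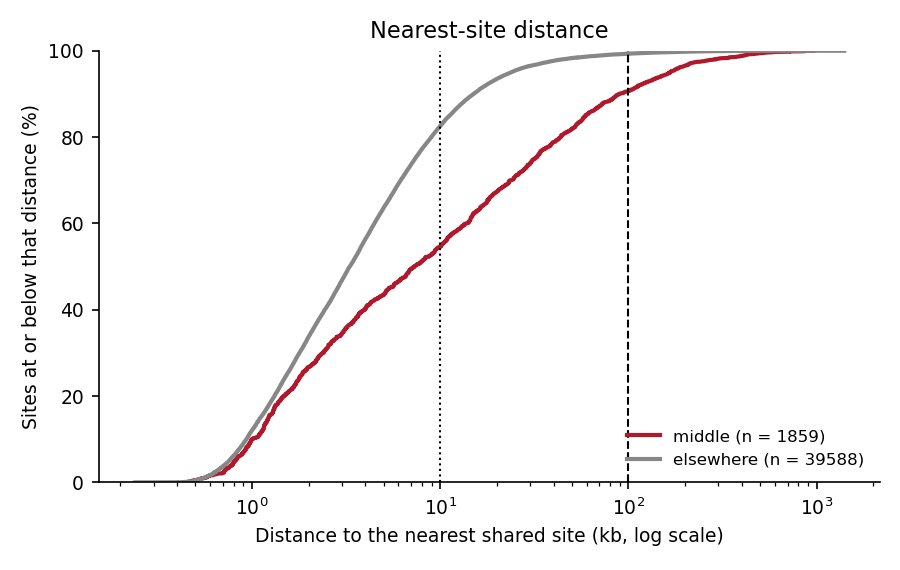
Share of sites in percent (y axis) whose nearest shared site lies at or below the distance in kb on the x axis (log scale), for the middle (red) and elsewhere (grey); the dotted line marks 10 kb and the dashed line 100 kb. At 10 kb the red curve has reached 54.5% and the grey one 82.6%, and at 100 kb they stand at 90.6% and 99.3%.

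Between successive members, 1840 intervals could be measured. Their median was 27.9 kb and their mean 93.6 kb, a ratio of 3.36, against a median of 6.85 kb and a mean of 18.1 kb elsewhere, a ratio of 2.64. Of the intervals between members, 619 (33.6%) were at most 10 kb and 464 (25.2%) were over 100 kb, against 61.1% and 2.52% elsewhere. The intervals over 100 kb took 81.0% of the length between members, against 34.6% elsewhere. In 1796 windows of 100 kb laid from the 40% limits, 993 windows (55.3%) held no shared site, 341 held 1, and 87 held 5 or more. Those 87 windows, 4.84% of all, held 549 members (29.6%), and the fullest window held 12. Intervals and windows pool chromosomes whose middles differ in density, which by itself makes spacing uneven. No windows were laid elsewhere.

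The longest stretches without a shared summit that touched a middle were on chromosomes 17, 5 and 4. On chromosome 17 the stretch ran from 20923742 to 22938713, over 2.01 Mb at 50.3 to 55.1% of the span. Between its outer sites lay no further replicate 1 summit and 1 replicate 2 summit. On chromosome 5 it ran from 15985268 to 17927347, over 1.94 Mb, with no further replicate 1 summit and 1 replicate 2 summit inside. On chromosome 4 it ran from 27129906 to 28754035, over 1.62 Mb, with no further replicate 1 summit and 2 replicate 2 summits inside. These stretches were thus empty of shared sites, that of chromosome 5 lying only in part within the middle. Peaks called in replicate 2 alone were not wholly absent from them. Of the 1840 intervals between successive members, 70 were longer than 500 kb and 11 longer than 1 Mb. Of the 39550 intervals elsewhere, 83 were longer than 500 kb and 17 longer than 1 Mb.

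Isolated members were those with no other shared site within 100 kb. There were 174 of them, or 9.36% (95% Wilson interval 8.12 to 10.8), against 267 sites or 0.674% elsewhere (0.598 to 0.760). In the flanks at 20 to 40% and 60 to 80% of the span, the share was 2.32%. Chromosome 4 had 16 isolated sites among its 41 members (39.0%), and chromosome 18 had 15 of 68 (22.1%). Chromosome 11 had 2 of 130 (1.54%) and chromosome 12 had 2 of 103. Isolation counted against shared sites alone leaves out peaks of 1 list. Of the 174 isolated members, 73 had another replicate 2 peak within 100 kb, 11 had another replicate 1 peak there, and 97 had no other peak of either list within that distance. With all replicate 2 peaks taken as sites, 5.15% of the middle peaks were isolated, against 0.351% elsewhere, and the median distance to the nearest peak was 3.90 kb, against 2.31 kb. With all replicate 1 peaks these values were 8.87% against 0.629%, and 6.36 kb against 3.04 kb.

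The most isolated member lay at 17927041 to 17927562 of chromosome 5, an interval common to the peaks of both replicates, and its nearest shared site was 954.9 kb away. Replicate 1 gave it a fold of 4.18 (95% Poisson interval 2.74 to 6.14), and replicate 2 a fold of 10.6 (7.73 to 14.2). The intervals here and in what follows take the background as fixed and cover counting error only. The next was on chromosome 4 at 24910677 to 24911361, 872.8 kb from the nearest, with folds of 4.68 (2.98 to 7.04) and 9.43 (6.80 to 12.8). These first sites were weak in replicate 1, and the intervals of the replicates do not overlap at the site on chromosome 5. The intervals are not scaled for the higher folds of replicate 2, a median of 1.29 times those of replicate 1 at members. After scaling of summit pileups, 0 members differed between replicates in the exact binomial test given below. A site on chromosome 6 at 26602062 to 26602387 lay 860.0 kb from its neighbour, with folds of 7.16 and 6.60. Chromosome 2 had the other two, at 23146879 to 23147149 and at 23863972 to 23864392, each other's nearest at 717.2 kb. Their folds were 3.85 and 6.84 at the first site, and 9.77 and 14.5 at the second. Such distances also occurred outside the middles, where the largest was 1400.7 kb, at a site of the flanks. A distance of 500 kb or more was found for 11 of 1859 members and for 10 of 9975 sites in the flanks.

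Isolated members included strong sites. Of the 174 isolated members, 45 (25.9%) reached a fold of 10 in both replicates, against 26.6% of all members and 26.8% of all shared sites on the 19 chromosomes. The strongest isolated sites, chosen after their values were seen, included chromosome 15 at 22620838 to 22621526, where the fold was 43.4 (37.9 to 49.4) in replicate 1 and 37.9 (33.2 to 43.0) in replicate 2. Its nearest peak in either list was 107.1 kb away. The same chromosome had another at 26298229 to 26298790, where the folds were 32.7 and 43.9 and a replicate 2 peak lay 3.34 kb from it. At 20852841 to 20853537 of chromosome 14 the folds were 26.4 and 33.2, with no other peak of either list within 173.4 kb. Each of these was among the strong sites of the 19 chromosomes, ranking 270, 387 and 1147 of 41447.

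At the other end of the spacing stood islands, which are runs of 3 or more shared sites with successive summits at most 10 kb apart. The middles held 138 islands with 502 members, or 27.0% (95% Wilson interval 25 to 29.1), against 65.8% of the sites elsewhere (65.3 to 66.2) and 51.0% of those in the flanks. A further 511 members (27.5%) lay in pairs and 846 (45.5%) had no shared site within 10 kb. Islands of the middle were small, with a median of 3 sites and at most 8, against a median of 4 and at most 23 elsewhere. Their median length from first to last summit was 8.24 kb. Of the 138 islands, 88 had 3 sites and 24 had 5 or more. With all replicate 2 peaks taken as sites the middles held 270 islands, and with all replicate 1 peaks they held 152.

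Islands were found in the middles of 18 of the 19 chromosomes. Chromosome 8 had 21 of them with 86 of its 216 members (39.8%), chromosome 11 had 14 with 46 of its 130 members, and chromosome 9 had 11 with 39 of its 111 members. Chromosome 4 had none, chromosome 5 had 2 with 6 of its 50 members, and chromosome 20 had 2 with 10 of its 81 members. Chromosome 18, also with a sparse middle, had 7 with 25 of its 68 members (36.8%). Without chromosome 8 the number of islands was 117.

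The island with most sites was on chromosome 6, from 21474061 to 21486115, with 8 sites over 11.7 kb and its nearest outer neighbour 16.6 kb away. From the first site to the last, the folds in replicate 1 were 4.80, 10.7, 18.9, 12.8, 6.28, 7.16, 12.8 and 16.1, and in replicate 2 they were 3.88, 16.9, 30.8, 12.8, 9.72, 9.05, 26.6 and 12.9. Of these sites, 5 passed a fold of 10 in both replicates and the first was the weakest in both. On chromosome 8, an island from 21302578 to 21325327 held 7 sites over 22.3 kb. Its folds were 5.78, 4.01, 6.36, 38.4, 8.54, 5.03 and 40.7 in replicate 1, and 7.54, 6.12, 9.38, 45.7, 11.5, 6.72 and 52.0 in replicate 2. There, 2 sites stood far above the other 5 in both replicates.

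A second island of chromosome 8, from 21182957 to 21202303, had 7 sites with folds between 3.99 and 12.3 in replicate 1 and between 5.15 and 13.8 in replicate 2. Another, from 23062236 to 23089969, had 7 sites with folds between 4.12 and 8.50, and between 5.11 and 10.6, and none reached a fold of 10 in both. On chromosome 20, an island from 24879489 to 24900097 had 7 sites with folds between 5.83 and 18.2, and between 3.96 and 31.8. Large islands were therefore not all strong. Of the 88 islands of 3 sites, 54 (61.4%) held at least 1 site with a fold of 10 in both replicates, against 1083 of 1830 (59.2%) such islands elsewhere, so the shares were close. Within an island the strongest site, by the geometric mean of both folds, was a median of 2.27 times as strong as the weakest, and at most 9.29 times.

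Close neighbours differed in strength about as much as distant ones. Strength differed by a median factor of 1.65 between the 619 pairs of successive members at most 10 kb apart, and by 1.59 between the 464 pairs over 100 kb apart. Across those pairs, Spearman's rho of the strengths was 0.017 and 0.0063. Pairs share libraries and sites, so these values are a description.

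Members as a whole had folds close to those of other sites. The fold in replicate 1 had a median of 7.04 at members, from 2.52 to 65.3, against a median of 7.04 elsewhere. In replicate 2 the median was 9.39 at members, from 2.39 to 64.2, against 9.14 elsewhere. The middle 50% of the folds ran from 5.26 to 10.6 at members and from 5.19 to 10.8 elsewhere in replicate 1, and from 6.53 to 13.8 and from 6.33 to 14.2 in replicate 2. The middle 50% of members and of other sites thus covered nearly the same range in each replicate. At the top, the geometric mean of both folds reached 64.7 at members and 81.0 elsewhere.

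A fold of 10 in both replicates was reached by 494 members (26.6%), against 26.8% of all shared sites on the 19 chromosomes. A fold of 20 in both was reached by 109 members (5.86%), against 5.88% of all. These shares are near the background. A fold of 50 in both was reached by 1 member (0.0538%), against 0.07% of all.

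By chromosome, the median strength of members was above that of the other sites on 10 chromosomes and below it on 9 (two-sided exact sign test over 19 chromosomes, p = 1, Benjamini-Hochberg adjusted p = 1 over 9 tests). The median difference was 0.027 on the log2 scale, with an interval of -0.077 to 0.094 from order statistics (coverage 98.1%). Chromosomes share both libraries and are not biological replicates, so the test speaks of agreement between chromosomes only. The direction was opposite, -0.025, against the flanks alone. Chromosome 19 had the largest positive difference, with a median strength of 9.46 for its 98 members and 7.91 elsewhere on it. Chromosome 5 followed with 9.06 against 7.83, and chromosome 6 with 9.22 against 8.17. Chromosome 4 had the largest negative one, 6.98 for its 41 members against 7.91 elsewhere, and chromosome 18 had 6.91 for 68 members against 7.70.

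**Figure D4:**
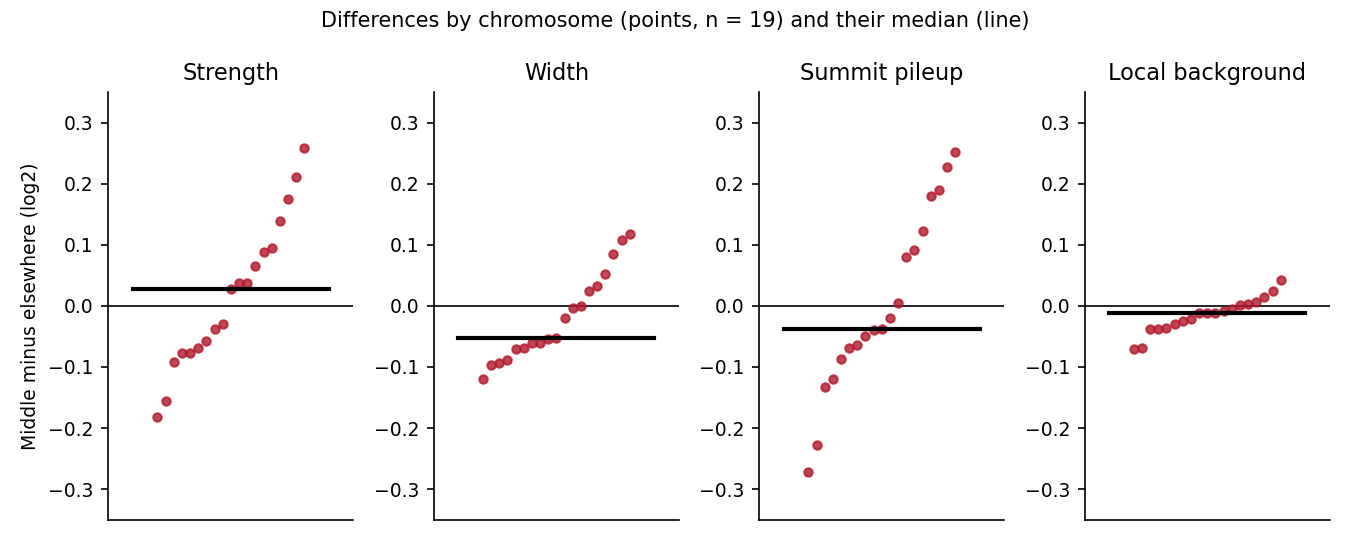
Difference of members minus other sites of the same chromosome on the log2 scale (y axis) for strength, width, summit pileup and local background, 1 point for each of 19 chromosomes in order of value and a line at the median. Points lie on both sides of 0 in all 4 panels, and those of the local background span the least, from -0.070 to 0.043.

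The read numbers behind these folds were close too. The pileup at the summit, recovered from fold and p-value, had a median of 31 reads at members and 31 elsewhere in replicate 1, and of 40 and 40 in replicate 2. Members had 13 to 316 reads in replicate 1, and 13 to 332 in replicate 2. By chromosome, the median pileup was higher at members on 8 and lower on 11 (exact sign test as above, p = 0.648, adjusted p = 0.833), with a median difference of -0.038 on the log2 scale (interval -0.087 to 0.12).

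Peaks of the middle were about as wide as others. The median width was 426 bp at members and 432 bp elsewhere in replicate 1, and 426 bp and 428 bp in replicate 2. Averaged over both replicates, members were wider than other sites on 6 chromosomes, narrower on 12 and equal on 1 (exact sign test as above, p = 0.238, adjusted p = 0.535). The median difference was -0.052 on the log2 scale (interval -0.071 to 0.033). Chromosome 2 had the largest negative difference, 399 bp for members against 433 bp elsewhere, and chromosome 19 the largest positive one, 467 bp against 430.0 bp. With the middle taken at 45 to 55% of the span the median difference turned to 0.029. Isolated members had a median width of 406 bp and members in islands 430 bp.

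Local background, the divisor of the fold, was close in the middles and elsewhere. Its source is taken to be the input samples. It is given relative to the lowest value of each list, 2.98 reads for replicate 1 and 2.83 for replicate 2. The mean relative background was 1.23 at members and 1.24 elsewhere. The lowest value applied in both replicates to 280 members (15.1%), against 11.5% of sites elsewhere. By chromosome, the mean background was higher at members on 6 and lower on 13 (exact sign test as above, p = 0.167, adjusted p = 0.501), with a median difference of -0.011 on the log2 scale (interval -0.037 to 0.0037). With the replicate 2 peaks alone it was lower in the middle on 17 of 19 chromosomes. The median difference was then -0.021 on the log2 scale (adjusted p = 0.00364, exact sign test). With the replicate 1 peaks alone it was lower on 13 (adjusted p = 0.418, exact sign test). Both adjusted p-values cover fewer tests than the one above, as measures that need both lists drop out. Replicate 2 peaks had a mean relative background of 1.23 in the middle and 1.25 elsewhere.

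A background of at least 1.5 times the lowest in both replicates was found at 109 members (5.86%), against 5.44% of all shared sites on the 19 chromosomes. At least 2 times the lowest was found at 9 members (0.484%), against 0.326% of all. Members were ranked by the lower of their relative backgrounds in the replicates. By that order the first was on chromosome 11 at 19060489 to 19060930, with 8.80 and 8.52 reads, 2.95 and 3.01 times the lowest. Its folds were 4.90 and 7.98. Next came 27343516 to 27343737 of chromosome 2, which had 13.4 reads in replicate 1, the most of any member there, and 7.65 in replicate 2, with folds of 2.77 and 5.09. The other three, with backgrounds of 2.02 to 2.42 times the lowest, were on chromosome 8 at 19949926 to 19950152, on chromosome 11 at 15904359 to 15904650 and on chromosome 17 at 18390893 to 18391301. All 5 had folds under 8 in both replicates, which follows in part from dividing by a high background.

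The 10 strongest members lay on 7 chromosomes. First stood 24777742 to 24778668 of chromosome 5, at 58.7% of the span, where the fold was 65.3 (57.9 to 73.5) in replicate 1 and 64.2 (56.9 to 72.1) in replicate 2. It ranked 4 among the 41447 sites of the 19 chromosomes, on a chromosome with one of the sparsest middles, and its nearest shared site was 10.1 kb away. Next was 23958693 to 23959756 of chromosome 3, whose folds were 56.3 (50.3 to 62.9) and 49.4 (44.3 to 55), over backgrounds of 4.63 and 5.74 reads. A shared site lay 4.19 kb from it on 1 side, and on the other side 205.6 kb of sequence held none. Its pileups of 316 and 332 reads were the highest of all members in both replicates.

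Chromosome 8 held 3 of the 10 strongest. They lay at 21324617 to 21325327, with folds of 40.7 and 52.0, at 20441842 to 20442539, with folds of 43.6 and 41.3, and at 21316573 to 21317412, with folds of 38.4 and 45.7. The first and the last belong to the island described above. Folds were 39.6 and 51.5 at 22252585 to 22253226 of chromosome 9. They were 39.4 and 47.8 at another site of chromosome 3, 19612527 to 19613107, and 36.3 and 49.4 at 19897557 to 19898291 of chromosome 14. At 17933844 to 17934677 of chromosome 11 they were 37.1 and 41.2, and the nearest shared site was 90.5 kb away. The remaining one was the isolated site on chromosome 15 at 22620838. Of these 10 sites, 4 lay in islands and 6 were alone or in pairs.

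**Figure D5:**
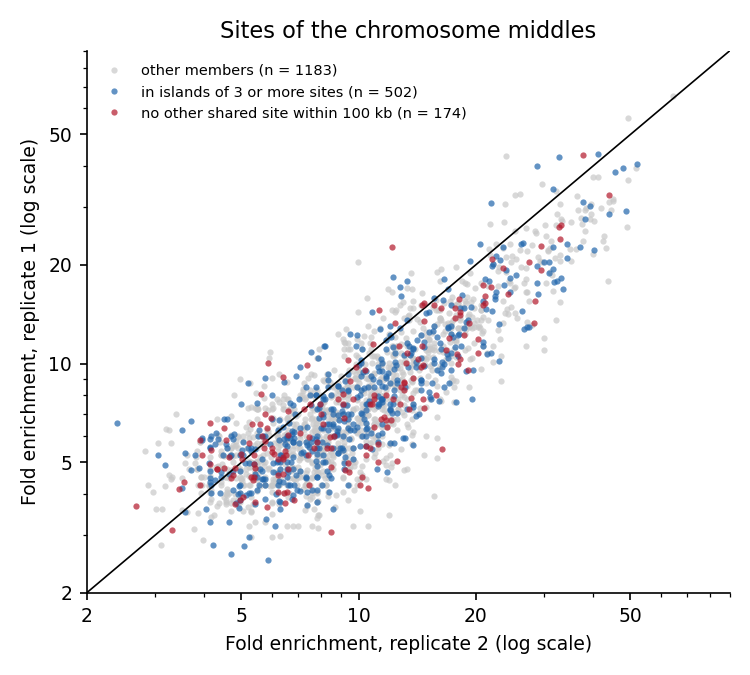
Fold enrichment of the 1859 members in replicate 2 (x axis) and replicate 1 (y axis), both on log scales, with the line of equal folds; red points have no other shared site within 100 kb (174), blue points lie in islands (502) and grey points are the other members. Red and blue points spread over the same range of folds, and most points lie below the line, with the higher fold in replicate 2.

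No difference in strength between members in islands and isolated members passed the test. The median strength was 7.98 in islands, from 3.43 to 46.0, and 7.68 at isolated members, from 3.13 to 40.5. On 16 chromosomes with at least 5 of each, islands had the higher median on 7 and the lower on 9 (two-sided exact sign test, p = 0.804, adjusted p = 0.904). The median difference was -0.037 on the log2 scale, with a wide interval of -0.18 to 0.33 (coverage 97.9%), and it turned positive under 4 of the alternatives tried. A fold of 20 in both replicates was reached by 27 members in islands (5.38%) and by 8 isolated members (4.60%).

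The replicates differed at members about as they did elsewhere. The fold was higher in replicate 2 at 1473 of 1859 members (79.2%), against 78.3% of sites elsewhere, and replicate 2 over replicate 1 gave a median ratio of 1.29, against 1.26. On the log2 scale the ratio had a median of 0.36 and an SD of 0.44 across members, against 0.34 and 0.43 elsewhere. The median ratio was higher at members on 12 chromosomes and lower on 7 (exact sign test as above, p = 0.359, adjusted p = 0.647; median difference 0.028, interval -0.016 to 0.069). Between the summits of the replicates, the median distance was 27 bp at members and 28 bp elsewhere (median difference over chromosomes 1 bp, interval -1 to 2, exact sign test p = 0.629, adjusted p = 0.833). Across shared sites, the ratio of summit pileups was 1.25, replicate 2 over replicate 1. After scaling for this overall difference, 0 members differed between replicates in summit pileup, against 13 or 0.0289% of all 44959 shared sites (exact binomial test over all of them, Benjamini-Hochberg adjusted p up to 0.05). Only sites called in both lists entered that test, so peaks of 1 list were left out of it. The lowest adjusted p of a member was 0.467. At an unadjusted p of at most 0.05, 62 members (3.34%) differed, against 3.37% of all.

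Most replicate 1 peaks of the middles, and fewer of the replicate 2 peaks, were part of a shared site, at shares close to those elsewhere. Of 1961 replicate 1 peaks in the middles, 1859 (94.8%, 95% Wilson interval 93.7 to 95.7) were part of a shared site, against 93.3% elsewhere (93.0 to 93.5). Of 2620 replicate 2 peaks, 1859 (71.0%, 69.2 to 72.7) were, against 72.1% elsewhere (71.7 to 72.5). By chromosome the share was higher in the middle on 14 and lower on 5 for replicate 1 (exact sign test as above, p = 0.0636, adjusted p = 0.501), with a median difference of 1.55 percentage points (interval -0.15 to 3.63). For replicate 2 it was higher on 6 and lower on 13 (exact sign test, p = 0.167, adjusted p = 0.501), by a median of -2.77 points (interval -3.94 to 1.42). The lists thus differed in opposite directions, and neither difference passed the test.

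Peaks of the middle that overlapped no peak of the other list numbered 97 in replicate 1 and 734 in replicate 2, which are 4.95% and 28.0% of the peaks there, against 6.20% and 26.8% elsewhere. Their median folds were 4.25 and 4.91, below those of the members, and such peaks elsewhere had 4.44 and 4.83. Among those of the middle, 3 reached a fold of 10, all in replicate 2. Of them, 22548718 to 22549098 of chromosome 6 had the highest fold, 11.4, from 45 reads at the summit. The highest fold among the 97 of replicate 1 was 7.02, at 23805224 to 23805493 of chromosome 17.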

How the data were processed

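ChIP-seq peaks of 2 ChIP replicates were used, and no file of the 2 input samples. Per the submitters' processing notes, Bowtie 0.12.7 and MACS2 were used. No source used here gives the MACS2 version, the calling threshold, the total reads or the genome build. The authors deposited 1 peak list per replicate, so peaks were called per sample. Each deposited peak has a fold, which is a ratio of pileup over background, and a −log10 p-value, a −log10 q-value and a score derived from it.

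Fold and p-value gave back a whole-number pileup, to within 0.001 on the −log10 scale, for all 48191 and 62340 peaks, and with it the local background. Intervals of folds take that background as fixed. Intervals cover counting error only. They do not allow for the fact that reads amplified by PCR and not tagged by molecule are not independent. Reads that map to several places can change peak numbers in repeats, and no source used here says how the authors treated them.

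Sites were paired by best mutual overlap of at least 1 bp. Medians (for background, means) of members and other sites were compared within each of 19 chromosomes by a two-sided exact sign test, with Benjamini-Hochberg adjustment over 9 tests. With 1 list taken alone the adjustment covered fewer tests, since measures that need both lists drop out. Islands and isolated members were compared on chromosomes with at least 5 of each. The smallest p the sign test can give over 19 chromosomes is 3.81e-06. Named sites were the strongest, the most isolated, those with the highest background, the largest islands and those next to the limits. The members and lists were chosen with earlier results of these data known. Python 3.11.15, numpy 2.4.6, scipy 1.17.1, pandas 2.3.3 and matplotlib 3.10.9 were used, and the procedures were tested on simulated data.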

Additional observations from a re-analysis of the deposited data

How the results depend on the processing

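Of 63 tested differences recomputed under other settings, 53 kept their direction and their side of the threshold. Of 33 values with no test, 22 moved by less than 1.5 times (counts) or by less than the SD between the replicates taken alone (nearest distance, isolated share). With the middle at 45 to 55% of the span there were 770 members and 54 islands, and at 35 to 65% there were 3214 and 272, since the window itself holds fewer or more sites. The difference of islands minus isolated members in strength turned to 0.13 with an overlap of 50% of both peaks, to 0.084 with a −log10 q of at least 5, to 0.051 at 45 to 55% and to 0.0010 at 35 to 65%. At 45 to 55%, the differences of members minus other sites turned to 0.029 for width, 0.028 for pileup and -0.5 bp for the summit offset, and at 35 to 65% the offset turned to -1 bp. Against the flanks, strength turned to -0.025. None of these reversed differences passed the test under either setting, and the cause was not tested. At 45 to 55%, islands and isolated members were compared on only 5 chromosomes, too few for the sign test to pass. Leaving out 1 ChIP replicate gave a nearest site at 3.90 to 6.36 kb, 5.15 to 8.87% isolated, 152 to 270 islands, 1961 to 2620 members and a background difference of -0.021 to -0.0084, of which the first, without replicate 1, passed the test. By construction, the share of isolated members was 18.2% at 50 kb and 3.44% at 200 kb, and islands numbered 86 at 5 kb and 24 with 5 or more sites. Without chromosome 8, 10.2% were isolated and the nearest site was at 8.15 kb. No paired analysis was possible because no values of the input samples were used, and every comparison was between sites of the ChIP replicates, although ChIP and input share replicate numbers. Chromosomes of the same libraries are not biological replicates, and 2 ChIP replicates limit what can be said of other embryos.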
